A study of Mus musculus with 4 samples.

Results

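The Id genes are Id1, Id2, Id3 and Id4, matched by their symbols in the deposited gene table, and they make up 4 of the 32285 genes counted. They were measured in mouse embryonic stem cells by droplet single-cell RNA sequencing of transcript 3′ ends, from 2 cultures of the wild-type E14tg2a.4 line (WT) and 2 cultures of an Srrm2 heterozygous knockout (Srrm2 hKO). The hKO line, CG0630, carries a gene trap that truncates 1 allele of the splicing factor gene Srrm2, and it is a single trapped clone made in E14tg2a.4, so all 4 cultures share that male parental background. Before collection the cells grew in serum-free medium with LIF, for a time that the labels give as 24 h or 72 h without tying either to a culture and that the study's single-cell methods give as another, single length. No treatment separated the groups.

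Each cell barcode carries a library number from 1 to 4, and nothing used here ties a number to a labelled culture. The 4 libraries are therefore described by number, no library is called WT or hKO, and the question of what the hKO did to the Id genes is not answered below. With no assigned replicates there was no test between groups and no p-value. Cells of 1 library share a culture and are not replicates. After the study's cell filter, 31989 of 41142 barcodes were kept, which is more cells than the study states. They numbered 7464 to 8514 per library, with 166839268 to 200180473 unique molecular identifiers (UMIs, each standing for 1 captured transcript) per library and a median of 18378 to 21897.5 UMIs per cell. Srrm2 itself lay at 387, 533, 238 and 356 UMIs per 1000000 UMIs (CPM, the level used throughout) in libraries 1 to 4, an order (3, 4, 1, 2) that does not follow that of any Id gene. Of the kept cells' barcode sequences, 105 occurred in more than 1 library.

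Id proteins are helix-loop-helix proteins without a basic DNA-binding region. They pair with the widely expressed E proteins (Tcf3, Tcf4 and Tcf12) and keep them from binding DNA, alone or with tissue-specific basic helix-loop-helix (bHLH) partners. In many cells Id1, Id2 and Id3 are direct targets of bone morphogenetic protein (BMP) signalling, in which ligand-bound receptors phosphorylate Smad1, Smad5 and Smad9, and these act with Smad4 in the nucleus. In mouse embryonic stem cells grown with LIF, BMP and Id proteins are known for helping to hold back differentiation, and Id1 is known to vary from cell to cell within a culture.

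In the GRCm38 assembly (the mm10 build), Id1 (ENSMUSG00000042745) lies on chromosome 2 from 152736251 to 152737410 on the plus strand, and Id2 (ENSMUSG00000020644) on chromosome 12 from 25093799 to 25097140 on the minus strand. Id3 (ENSMUSG00000007872) lies on chromosome 4 from 136143497 to 136145755 and Id4 (ENSMUSG00000021379) on chromosome 13 from 48261228 to 48266026, both on the plus strand. Of the 4, only Id4 overlaps other genes of the GENCODE annotation, the antisense gene A330033J07Rik and the lincRNA gene Gm49291, both on the opposite strand.

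Because GGCGCC is a GC-rich element that Smad proteins of the BMP branch are known to bind, it was searched on both strands of RefSeq promoters (GRCm38.p6, 250 bases before to 50 after each start). The promoter table held 3 of the 4 Id genes, Id2, Id3 and Id4. Of its 32851 promoters, 11.9% held GGCGCC at least once. Id2 and Id4 each had 1 match and Id3 had 0. The matches are shown in their 30-base windows with GGCGCC in capitals, to set beside the class patterns of Id2 and Id4, which went opposite ways. The Id2 window is chr12:25096306-25096335 on the minus strand and the Id4 window chr13:48260956-48260985 on the plus strand. The RefSeq start of Id2, at 25096092, is also the start of a GENCODE transcript of Id2, but a longer GENCODE transcript starts upstream, at 25097140, and sets the gene span given above. The Id2 window is thus upstream of the first of these and in an intron of the longer one, and the Id4 window is upstream of the single GENCODE transcript of Id4.
Id2: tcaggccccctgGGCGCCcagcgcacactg
Id4: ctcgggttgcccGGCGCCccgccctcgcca
A match describes letters, not a bound site.

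Id1, Id2 and Id3 differed between the libraries in the same order, lowest in library 1, then 3, then 2, and highest in library 4, whereas Id4 was low throughout, with its highest level in library 1 and its lowest in library 4. Id1 lay at 18.5, 70.6, 53.3 and 151 CPM in libraries 1 to 4, from 3093, 14130, 9186 and 26326 UMIs. Library 4 was thus 8.16-fold above library 1 (95% counting interval 7.86 to 8.47). Id2 lay at 8.57, 37.8, 22.0 and 60.1 CPM, a 7.01-fold range (6.63 to 7.41). Id3 lay at 21.8, 56.7, 36.6 and 68.7 CPM, and its range was narrower at 3.16-fold (3.04 to 3.28). Neighbouring libraries in these 3 orders had exact Poisson intervals that did not overlap, which covers counting error only and not the variation between cultures.

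The levels of Id4 in libraries 1 to 4 were 4.86, 3.98, 3.57 and 3.14 CPM, which spans 1.55-fold (1.39 to 1.73) on 547 to 811 UMIs per library. Its intervals for libraries 2 and 3 overlapped (3.71 to 4.27 and 3.29 to 3.86 CPM), as did those for libraries 3 and 4. Among 7312 genes with a mean of at least 10 CPM over libraries, 11.5% had a highest library at least 2-fold above the lowest. Id1, Id2 and Id3 were among them, and Id4 was under the limit of 10 CPM. Without library 1, Id1 and Id2 were still at least 2-fold apart and Id3 was not, while the number of all genes past 2-fold went from 842 to 439, and without library 4 to 471.

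**Figure D1:**
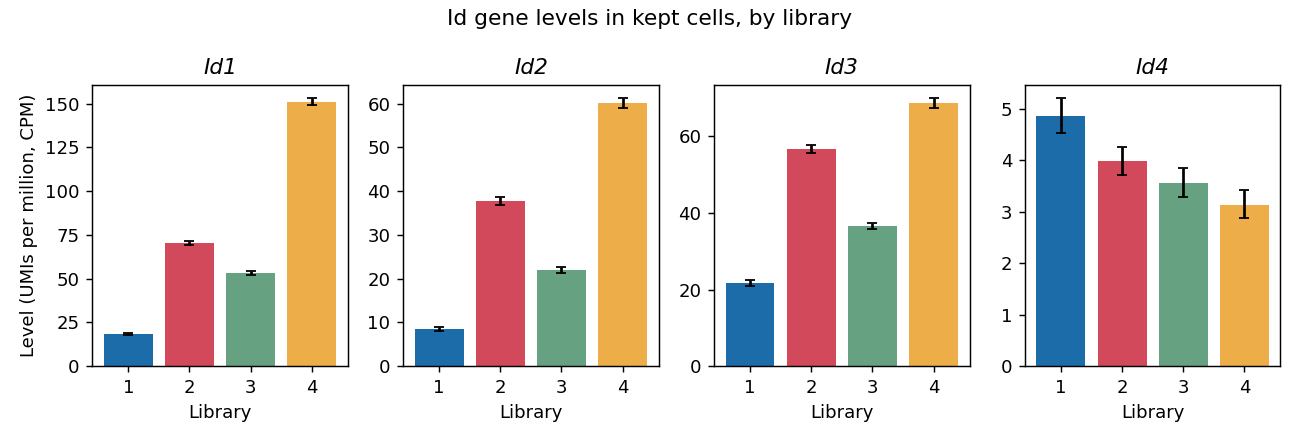
Levels of Id1, Id2, Id3 and Id4 in the kept cells of each library, in CPM (bars, linear axes from 0 that differ between genes), with exact 95% Poisson intervals. Id1, Id2 and Id3 are lowest in library 1 and highest in library 4, and Id4 is highest in library 1.

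For Id1, Id2 and Id3 the share of cells with a transcript differed less between libraries than the levels did. Each of these 3 genes was also found in fewer cells than a random spread of its UMIs would reach. After each cell was thinned to 5000 UMIs, Id1 was found in 7.65%, 19.1%, 16.1% and 28.0% of cells of libraries 1 to 4 (24.2%, 45.3%, 39.6% and 54.4% before thinning). If the same UMIs had been spread over cells at random, by a Poisson distribution, they would have reached 8.67%, 29.0%, 21.5% and 50.1%. Single cells reached 40, 68, 71 and 80 Id1 UMIs. Id2 was found in 3.33%, 14.4%, 7.30% and 19.5% of thinned cells, against 3.71%, 16.5%, 9.01% and 24.1% by a Poisson spread. In library 1 the interval of the Id2 share, 2.95% to 3.74%, held the Poisson value. Id3 was found in 9.32%, 20.6%, 12.9% and 22.2%, against 10.1%, 24.2%, 16.3% and 28.9%. Id4 was found in 1.65% to 2.55%. No cell type known to lack Id transcripts was identified in these cultures, so the share given by free RNA in droplets was not measured.

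The variance of thinned Id1 counts over cells was 1.44, 2.98, 2.39 and 3.98 times their mean in libraries 1 to 4, where a Poisson distribution gives a ratio of 1. The means themselves were 0.0907, 0.343, 0.242 and 0.695 UMIs per cell, in the same order of libraries. Such a ratio can rise with the mean alone, so it does not rank libraries, classes or genes of unlike mean by relative spread. Over all genes with a thinned mean of at least 0.05 UMIs per cell (7068 to 7384 genes), the median ratio was 1.02 to 1.03, and only 0.248% to 1.97% of them exceeded Id1. For Id3 the ratio was 1.20, 1.49, 1.76 and 1.85. For Id2 it was 1.35, 1.66 and 1.66 in libraries 2 to 4, and in library 1, where its mean was under the limit, 1.28. Id4, under the limit in every library, had ratios of 1.02 to 1.11. Within naive-high cells (defined next) the ratio for Id1 was 1.19, 1.89, 1.36 and 2.11. Within formative-high cells it was 1.20, 4.24, 3.45 and 3.88, above that of all kept cells in libraries 2 and 3.

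Cells were put into 5 classes by marker panels that hold no Id gene. Keratin-high cells had at least 5 UMIs of Krt8 and Krt18 per 10000. The others were split by a panel of 10 naive pluripotency genes (such as Nanog, Klf4, Esrrb and Zfp42) at 10 UMIs per 10000 and a panel of 8 formative genes (such as Dnmt3b, Otx2, Pou3f1 and Fgf5) at 8 per 10000 into naive-high, both-high, formative-high and both-low. Over all libraries these classes held 22087 naive-high, 1039 both-high, 5292 formative-high, 2554 both-low and 1017 keratin-high cells. They are ranges of a score and not cell types: 8.63% of kept cells lay within 20% of the naive cut and 8.44% within 20% of the formative cut. Naive-high cells made up 93.3%, 71.5%, 72.2% and 36.5% of libraries 1 to 4 and formative-high cells 1.64%, 17.3%, 5.06% and 44.0%. Keratin-high cells made up 0.751%, 0.376%, 8.35% and 3.55%.

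Library differences in Id1, Id2 and Id3 were present inside the naive-high class, at a smaller size than over all kept cells. For Id1 the naive-high levels were 17.0, 47.6, 31.7 and 57.9 CPM in libraries 1 to 4, which spans 3.41-fold (3.24 to 3.58) and keeps the library order of all kept cells. Id2 lay at 6.24, 31.1, 8.54 and 29.3 CPM there, a 4.99-fold range (4.65 to 5.36), with libraries 1 and 3 low and libraries 2 and 4 high. Id3 lay at 22.7, 49.7, 30.0 and 46.5 CPM, a 2.19-fold range (2.10 to 2.28) with the same pair of libraries on top. Id4 lay at 5.05, 4.89, 4.15 and 4.83 CPM, a 1.22-fold range (1.09 to 1.37), with library 3 lowest, so library 4 was not the lowest for Id4 within this class. In other classes the ranges of Id1 and Id3 could be wider than over all kept cells. For Id1 the range was 14.2-fold (10.6 to 19.5) in formative-high cells, against 8.16-fold over all kept cells, and 5.98-fold in both-low and 5.80-fold in keratin-high cells. For Id3 it was 23.9-fold (13.3 to 48.0) in formative-high, 8.11-fold in both-low and 5.23-fold in keratin-high cells, against 3.16-fold over all kept cells. For Id2 it was 3.31-fold, 3.56-fold and 1.91-fold in these 3 classes, against 7.01-fold. The keratin-high ranges are over libraries 1, 3 and 4, and the formative-high levels of library 1 rest on 45 Id1 and 11 Id3 UMIs.

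Between formative-high and naive-high cells of the same library, Id2 was higher and Id4 lower in every library, whereas Id1 and Id3 depended on the library. A gene was counted as changed when its levels stood 1.5-fold or more apart, with 1 sign, in each library that had 50 or more cells of both classes. By this rule 8.66% of 10717 genes with enough counts were higher and 6.49% lower in formative-high cells (15.1% either way), and of the 4 Id genes 1 was higher and 1 lower.

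Id2 lay at 23.2, 59.9, 51.1 and 76.6 CPM in formative-high cells of libraries 1 to 4. These levels were 3.71-fold (2.90 to 4.69), 1.92-fold (1.83 to 2.03), 5.98-fold (5.37 to 6.66) and 2.62-fold (2.48 to 2.76) above naive-high cells. The largest folds stood in libraries 1 and 3, whose naive-high cells had least Id2. Id4 lay at 1.52, 1.29, 1.11 and 1.97 CPM in formative-high cells, from 5, 45, 11 and 153 UMIs, or 0.302, 0.265, 0.268 and 0.409 times its naive-high levels. At 5 and 11 UMIs the values of libraries 1 and 3 are coarse, with intervals of 0.495 to 3.55 and 0.554 to 1.99 CPM.

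Id1 lay at 13.7, 136, 79.5 and 195 CPM in formative-high cells. It was 2.85-fold (2.74 to 2.96), 2.51-fold (2.32 to 2.71) and 3.37-fold (3.25 to 3.49) above naive-high cells in libraries 2, 3 and 4, but 0.806-fold in library 1, where 133 formative-high cells gave 45 Id1 UMIs and the interval, 0.587 to 1.08, included no difference. Library 1 alone kept Id1 from being counted as changed, and without it 2 Id genes, Id1 and Id2, were higher in formative-high cells. With 1 library fewer to pass, the share of all genes higher was then 10.1%. The library 1 value also depended on how cells were classed: on the log2 scale it was -0.31, and it became 0.32 with all cuts 1.5 times lower and 0.88 with cells thinned before classing. Both-low cells had Id1 at 38.3, 139, 90.1 and 229 CPM, no lower than formative-high cells in each library. Their Id2 lay at 22.2, 54.1, 32.2 and 78.9 CPM. Levels of Id1 and Id2 above those of naive-high cells were thus not particular to formative-high cells.

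Id3 went opposite ways in different libraries. In formative-high cells it lay at 3.35, 80.1, 17.4 and 79.9 CPM. Against naive-high cells this was 0.147-fold (0.0736 to 0.264, from 11 UMIs) in library 1 and 0.578-fold (0.493 to 0.674) in library 3, but 1.61-fold (1.54 to 1.69) in library 2 and 1.72-fold in library 4. Each of these 4 directions was the same under every other filter, cut and summary that gave a value. Both-low cells showed the same split, with Id3 at 9.08 and 26.2 CPM in libraries 1 and 3 and at 63.6 and 73.6 CPM in libraries 2 and 4.

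Some other marker lists also stood higher in formative-high than in naive-high cells of each library. The summed level of 8 contractile genes was 457, 300, 625 and 489 CPM against 132, 190, 187 and 241 CPM in libraries 1 to 4, with 6 to 8 of the 8 detected. Krt8 and Krt18 together lay at 52.6 to 81.5 against 6.77 to 17.3 CPM, and 6 fibroblast markers at 6.70 to 11.4 against 1.45 to 3.73 CPM, with 2 to 5 of the 6 detected. Their part in the Id levels was not tested.

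Keratin-high cells had the highest Id2 level of the 5 classes in each library, and the highest Id1 level in libraries 1, 2 and 4. In library 3 the 21 both-high cells had more Id1, at 178 CPM (145 to 216, from 101 UMIs). In library 1 the Id2 interval of 10 both-high cells, 62.7 to 134 CPM, overlapped that of keratin-high cells, 88.5 to 118 CPM. These 2 sets of both-high cells are small, and their intervals do not cover the spread between cells. The most in any kept cell was 71 Id1 UMIs in library 3 and 24 Id2 UMIs in library 1, so few cells could set such levels. The rule on 50 cells left libraries 1, 3 and 4, and library 2, with 32 keratin-high cells, is given beside them. In keratin-high cells Id1 lay at 69.3, 334, 120 and 402 CPM in libraries 1 to 4. This was 4.07-fold (3.39 to 4.85), 3.8-fold (3.6 to 4.00) and 6.93-fold (6.60 to 7.29) above naive-high cells in libraries 1, 3 and 4, and 7.01-fold in library 2. Id2 lay at 102, 123, 76.2 and 146 CPM, or 16.4-fold (14.0 to 19.2), 8.93-fold (8.23 to 9.68) and 4.98-fold (4.61 to 5.38) above naive-high cells in libraries 1, 3 and 4, and 3.95-fold (3.21 to 4.80) in library 2. By the same rule 15.3% of 10059 genes were higher and 10.4% lower in keratin-high cells (25.7% either way), and of the 4 Id genes 2 were higher and 0 lower.

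Id3 lay at 29.9, 170, 101 and 157 CPM in keratin-high cells, 3.36-fold (3.17 to 3.55) and 3.37-fold (3.14 to 3.61) above naive-high cells in libraries 3 and 4, 3.42-fold in library 2 and 1.32-fold (0.995 to 1.71) in library 1. It was not counted as changed, and library 1, with 61 keratin-high cells, again decided this: in libraries 3 and 4 alone 3 Id genes were higher, and so were 18.2% of all genes tested. Id4 lay at 5.25, 3.61, 3.31 and 4.72 CPM, from 10, 3, 63 and 33 UMIs, and its folds of 1.04, 0.797 and 0.977 in libraries 1, 3 and 4 had intervals that included no difference. Id4 was thus close to its naive-high level in keratin-high cells within wide intervals (0.496 to 1.92 in library 1), and low in formative-high cells.

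Other marker lists moved with the keratin-high class. The summed level of 8 contractile genes (among them Acta2, Tagln and Tpm1) was 4206 to 6587 CPM in keratin-high cells against 132 to 241 CPM in naive-high cells, with 7 or 8 of the 8 detected. Immediate-early genes such as Fos and Egr1, 10 in all, lay at 522 to 628 against 189 to 220 CPM. A list of 5 trophectoderm markers lay at 38.3 to 74.9 against 4.10 to 5.64 CPM, with 3 or 4 of the 5 detected, and a list of 6 fibroblast markers at 31.3 to 65.4 against 1.45 to 3.73 CPM. Primitive endoderm markers, 6 in all, lay at 1.05, 13.3, 7.71 and 11.7 CPM in keratin-high cells of libraries 1 to 4 against 0.583 to 1.02 CPM. A list of 5 primed and primitive streak markers lay at 15.5 to 36.1 against 1.57 to 3.01 CPM, with 3 to 5 of the 5 detected. The summed level of 14 S-phase genes was below that of naive-high cells in every library, at 1382 to 1725 against 2111 to 2441 CPM. So was that of 14 genes of the G2 and M phases, at 3649 to 4679 against 4499 to 5006 CPM. Keratin-high cells also had more UMIs, with medians of 22617.5 to 26919 against 18234 to 21900, and a lower median mitochondrial share, 2.94% to 3.78% against 3.79% to 5.46%. The part of these in the Id levels was not tested.

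**Figure D2:**
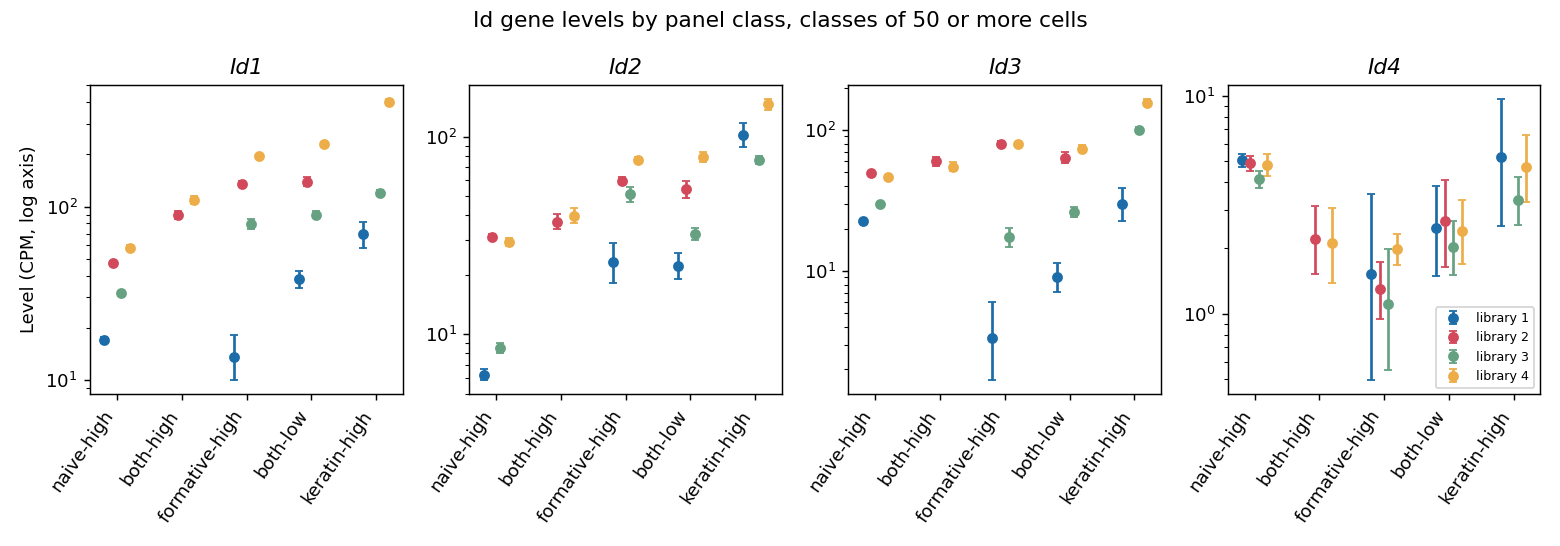
Levels of the Id genes (CPM, log axes that differ between genes) in the 5 panel classes of each library, for classes of 50 or more cells, with exact 95% Poisson intervals. Id2 is lowest in naive-high cells of each library, Id3 in libraries 1 and 3 is lower in formative-high than in naive-high cells, and Id4 is lowest in formative-high cells of each library.

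Within each library the cells were also ranked by their share of naive-panel UMIs and cut into 5 bins of equal size, a description that uses no threshold. The bins cover unlike shares: from lowest to highest bin the median per 10000 UMIs went from 12.1 to 27.8 in library 1 and from 2.86 to 24.8 in library 2. It went from 2.55 to 24.3 in library 3 and from 1.04 to 20.5 in library 4, whose second bin lay at 2.59. Shapes are thus not compared at equal naive share. From the bin with the lowest naive share to the highest, Id1 went from 27.2 to 13.6 CPM in library 1, from 143 to 40.4 CPM in library 2 and from 109 to 27.0 CPM in library 3, lower at each step. Library 4 had its Id1 maximum inside the range, with 148, 261, 212, 69.6 and 58.1 CPM. Id2 in library 4 had the same shape, with 70.4, 95.6, 72.1, 32.9 and 28.7 CPM, and so had Id3, with 71.5, 98.4, 76.2, 46.7 and 50.2 CPM. In library 4 the bin with the lowest naive share was thus not the one with most Id transcripts.

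Id3 differed in shape between libraries over these unlike bins. It went up from 16.0 to 26.1 CPM with naive share in library 1. In library 2 it lay at 80.9, 52.6, 51.3, 53.4 and 46.1 CPM, so most of its decrease was after the lowest bin. In library 3 it was lowest in the middle bin, with 55.9, 30.5, 25.6, 31.6 and 37.2 CPM. Keratin-high cells made up 33.3% of the lowest bin there, against 1.76% to 4.55% in the other libraries, and their part in its Id3 level was not tested. Id4 was highest in the bin of highest naive share in all 4 libraries, from 3.73 to 6.71 CPM in library 1, from 1.35 to 5.45 CPM in library 2, from 2.43 to 4.52 CPM in library 3 and from 1.40 to 4.93 CPM in library 4.

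**Figure D3:**
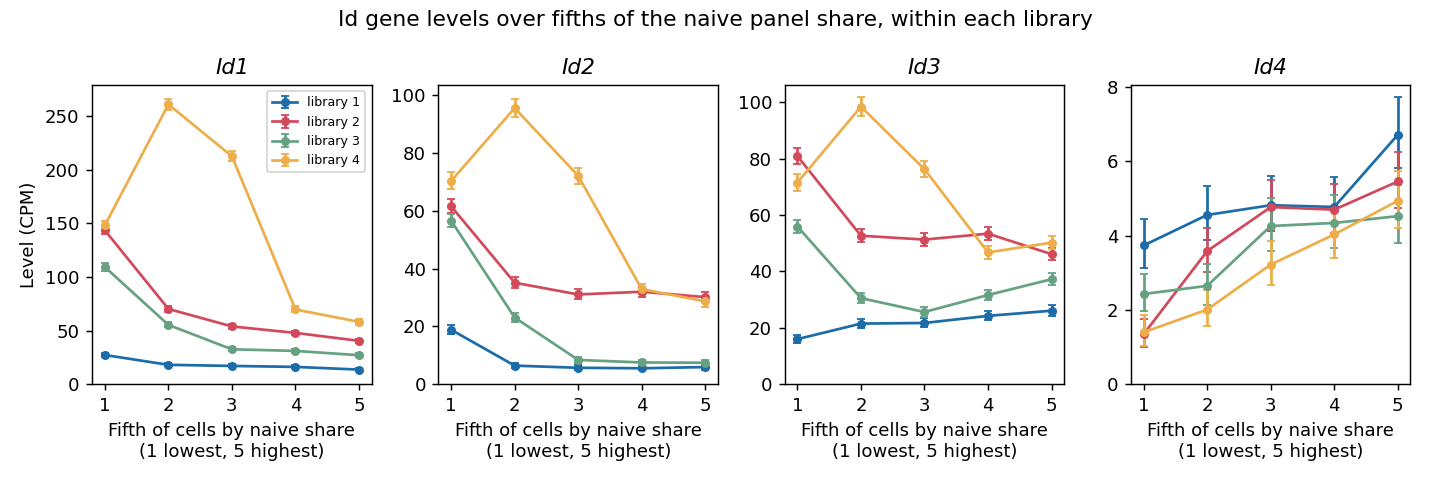
Levels of the Id genes (CPM, linear axes from 0) over 5 equal bins of the cells of each library, ordered by the share of their UMIs in the naive panel, with exact 95% Poisson intervals. The same bin stands for unlike naive shares in different libraries. Id1 and Id2 in library 4 peak in the second bin (261 and 95.6 CPM), Id3 goes up with naive share in library 1, and Id4 is highest in the last bin of every library.

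Cells that held a transcript of Id1, Id2 or Id3 held another of the 3 more often than the separate shares give in libraries 2, 3 and 4, and not detectably in library 1. Over kept cells thinned to 5000 UMIs, the number with both Id1 and Id2 was 1.11 (0.706 to 1.67), 1.87 (1.70 to 2.05), 1.77 (1.51 to 2.06) and 1.88 (1.76 to 2.01) times the product of the shares in libraries 1 to 4. For Id1 with Id3 the ratio was 0.984, 1.67, 1.49 and 1.73, and for Id2 with Id3 it was 0.914, 1.29, 1.30 and 1.63. The interval lay above 1 in 9 of 12 combinations of these 3 pairs and 4 libraries, none in library 1. Of the 12 combinations with Id4, 1 did so, Id3 with Id4 in library 3 (1.75, 1.21 to 2.46), and of all 24 none lay below 1. Cells with a transcript of all 3 genes numbered 2, 188, 46 and 392 in libraries 1 to 4, and 80.9%, 59.3%, 69.5% and 53.1% of cells held none of the 3. Pairs of other genes were not counted in this way, here or within the classes below. The counts are thus not shown to be particular to the Id genes.

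Because the classes differ in level, the same was computed within naive-high cells. There the interval lay above 1 for all 3 pairs in libraries 2 and 4 and for no pair in libraries 1 and 3. Id1 with Id2 stood at 0.909 (0.497 to 1.52), 1.72 (1.5 to 1.96), 1.16 (0.806 to 1.62) and 1.73 (1.40 to 2.11). Id1 with Id3 stood at 0.925, 1.5, 1.03 and 1.40, and Id2 with Id3 at 0.998, 1.18, 0.797 and 1.37. In library 3 the ratios near or below 1 within the class stood beside ratios of 1.30 to 1.77 over all kept cells. Within formative-high cells, Id1 with Id2 stood at 1.77 (1.5 to 2.07), 1.77 (1.12 to 2.64) and 1.73 (1.58 to 1.88) in libraries 2, 3 and 4. Id1 with Id3 stood there at 1.92, 3.80 and 1.74, and Id2 with Id3 at 1.39, 2.19 (0.882 to 4.46) and 1.61. In library 1, with 133 such cells, 0 cells held both Id1 and Id2. The interval lay above 1 in 8 of the 12 combinations of these 3 pairs and 4 libraries. It also did so in formative-high cells of library 4 for Id1 with Id4 (1.93, 1.14 to 3.04) and Id3 with Id4 (1.92, 1.03 to 3.29). These 2 ratios rest on 18 and 13 cells with both genes.

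**Figure D4:**
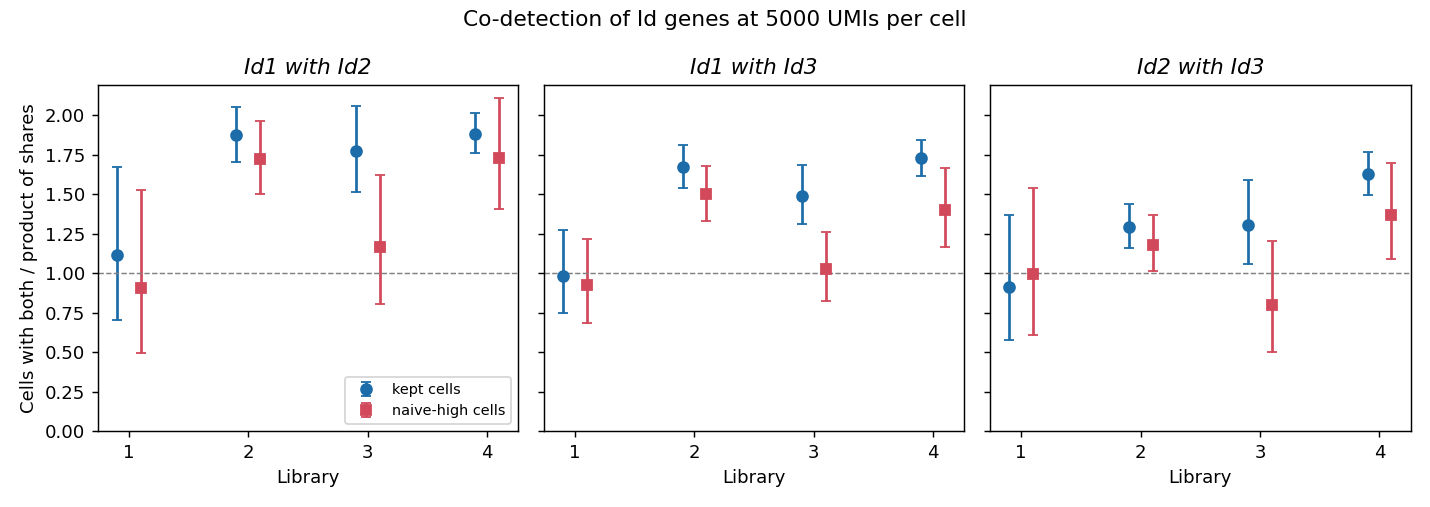
Number of cells with a UMI of both genes divided by the number given by the product of their shares, for 3 pairs of Id genes in kept cells (circles) and naive-high cells (squares) of each library, each cell thinned to 5000 UMIs. Bars are exact 95% binomial intervals and the dashed line marks a ratio of 1. The intervals of all 3 pairs lie above 1 in libraries 2 and 4 in both sets of cells, and in library 3 over all kept cells but not in naive-high cells.

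Naive-high cells with and without a thinned Id1 UMI were then compared for other genes. Id2 was 2.27-fold higher in cells with Id1 in both libraries 2 (2.12 to 2.41) and 4 (2.05 to 2.51), 1.23-fold (1.03 to 1.46) in library 3 and 1.10-fold (0.867 to 1.39) in library 1. Id3 was 1.88-fold higher in libraries 2 and 4, 1.16-fold in library 3 and 0.989-fold in library 1. Of 9756 genes tested, 0% passed the 1.5-fold rule in either direction over the 4 libraries between cells with and without Id1, and the same held for Id2 and for Id3. The groups rest on thinned counts, so a cell whose Id1 UMIs were not drawn counted as without Id1. Over all kept cells, Id1 was found in 7.65% to 28.0% per library after thinning, against 24.2% to 54.4% before. This limits what the rule could find. Pou3f1, a formative transcription factor gene of the formative panel, was 2.39-fold, 1.31-fold, 1.33-fold and 1.47-fold higher in cells with Id1, and the naive factor gene Nanog stood at 0.932, 0.934, 0.947 and 0.884 times its level in cells without Id1. The naive marker Zfp42 was not lower in each library, at 0.918, 1.02, 0.946 and 0.985 times. Between cells with and without Id3 these genes did not follow the Id1 pattern, with Nanog at 1.07, 0.987, 1.12 and 1.08 times and Pou3f1 at 0.943, 0.985, 0.805 and 1.20 times.

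Bmp4, the main BMP ligand gene detected here, was higher in naive-high cells with an Id3 UMI in all 4 libraries, by 1.31-fold (1.22 to 1.40), 1.21-fold (1.14 to 1.27), 1.34-fold (1.25 to 1.44) and 1.40-fold (1.30 to 1.51). For Id1 the ratio for Bmp4 was 1.18, 1.02, 1.08 and 1.05, and for Id2 it was 0.959, 1.02, 0.776 and 0.858. Srrm2 did not differ detectably between cells with and without Id1, with ratios of 0.993, 1.01, 1.02 and 1.02 and intervals that included 1 in each library. These genes were picked for the comparison with the earlier results known.

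A pathway list of 43 genes (ligands, receptors, Smads, inhibitors, targets, E proteins and tissue bHLH factors) was set beside the Id genes, of which 17 reached 10 CPM in at least 1 library. Between libraries 16 had a mean of at least 10 CPM, and 2 of these, Skil and Dusp9, were at least 2-fold apart, a share near the 11.5% of all genes. Between formative-high and naive-high cells 24 had enough counts, of which 9 were higher and 2 lower, against 8.66% and 6.49% of all genes tested. Between keratin-high and naive-high cells 22 had enough counts, of which 10 were higher and 1 lower, against 15.3% and 10.4% of all genes tested.

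Among 7 ligand genes, Bmp4 alone reached 10 CPM, at 46.9, 43.0, 47.3 and 27.2 CPM in libraries 1 to 4. In naive-high cells it was nearly level, at 49.8, 54.1, 52.7 and 54.9 CPM, unlike Id1, Id2 and Id3 in the same cells. In formative-high cells it was lower in every library, at 4.26, 7.82, 6.26 and 6.83 CPM, while Id2 was higher there. In keratin-high cells it lay at 23.1, 75.7 and 30.3 CPM in libraries 1, 3 and 4, below naive-high cells in libraries 1 and 4 and above them in library 3.

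Among 6 receptor genes, Bmpr1a, a type I BMP receptor, was 2.85-fold, 2.40-fold and 2.05-fold higher in keratin-high than in naive-high cells of libraries 1, 3 and 4. In formative-high cells it was 2.28-fold, 1.78-fold, 2.00-fold and 1.46-fold higher in libraries 1 to 4 and missed the 1.5-fold rule in library 4. The type II receptor gene Acvr2b, the most counted of the receptor genes at 42.9 to 60.0 CPM per library, stood at 1.45-fold to 1.71-fold in formative-high and 1.02-fold to 1.23-fold in keratin-high cells. Smad4, the shared partner of receptor-activated Smads, was higher in formative-high cells (1.51-fold to 1.81-fold) and in keratin-high cells (1.75-fold to 1.89-fold). Smad1, the best counted of the BMP-activated Smads, was higher in keratin-high cells (1.77-fold to 2.5-fold), with 1.31-fold to 1.59-fold in formative-high cells. Smad5 met the rule as higher in both, at 1.62-fold to 2.47-fold in formative-high and 1.64-fold to 2.43-fold in keratin-high cells.

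Among 12 inhibitor genes, Fst, which encodes the activin and BMP antagonist follistatin, was higher in formative-high cells by 25.0-fold, 18.5-fold, 13.5-fold and 12.3-fold in libraries 1 to 4. It was also higher in keratin-high cells, by 4.81-fold to 13.8-fold. Fst reached 10 CPM in library 4 alone, at 10.6 CPM, the library with most formative-high cells. In naive-high cells it lay at 1.23 to 2.35 CPM, from 176 and 89 UMIs in libraries 2 and 4, so there the formative-high cells brought it past the count limit. Skil, which encodes a Smad corepressor, was 1.61-fold to 2.67-fold higher in formative-high cells and differed 2.64-fold between libraries, at 39.1, 79.0, 50.8 and 103 CPM. In keratin-high cells it stood at 2.18-fold, 1.91-fold and 1.07-fold (0.976 to 1.16) in libraries 1, 3 and 4, and so missed the rule there. Its relative Ski stood at 1.17-fold to 1.55-fold in formative-high and 1.29-fold to 1.52-fold in keratin-high cells. The inhibitory Smad gene Smad7 lay at 139, 95.7, 109 and 70.9 CPM, a 1.95-fold range that stayed under the 2-fold rule, with formative-high levels 0.799 to 1.01 times the naive-high ones and keratin-high levels 0.583 to 1.09 times. Bambi, a decoy receptor gene, stood at 1.04-fold to 1.37-fold in formative-high and 0.944-fold to 1.32-fold in keratin-high cells. The ubiquitin ligase genes Smurf1 and Smurf2 stood at 0.815-fold to 1.15-fold and 1.36-fold to 1.84-fold in formative-high cells, and at 0.592-fold to 1.24-fold and 1.43-fold to 1.56-fold in keratin-high cells. None of these 3 met the rule in either comparison. The inhibitor gene Smad6 met the rule as lower in formative-high cells. It stood there at 0.658, 0.421, 0.544 and 0.473 times its naive-high level in libraries 1 to 4. The library 1 value rests on 6 UMIs, and its interval (0.240 to 1.44) included no difference. In keratin-high cells Smad6 stood at 1.32, 0.863 and 0.744 times that level in libraries 1, 3 and 4 and missed the rule.

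Among 5 other genes known as BMP targets, Dusp9, a phosphatase that restrains ERK signalling, was the single gene with enough counts. It was 4.92-fold, 2.79-fold and 3.66-fold higher in keratin-high cells of libraries 1, 3 and 4. In formative-high cells it stood at 1.29-fold to 2.65-fold, under the rule in library 3. Between libraries it lay at 13.6, 10.3, 29.8 and 22.3 CPM, highest in library 3, which is not the order of the Id genes.

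A few pathway genes with too few counts for the rule had larger ratios in keratin-high cells, and they are named here after their values were seen. Gata3, a target gene that is also on the trophectoderm list, lay at 12.6, 14.5 and 15.3 CPM in keratin-high cells of libraries 1, 3 and 4 against 0.0716, 0.297 and 0.324 CPM in naive-high cells. The target gene Msx2 lay at 1.57, 6.03 and 4.86 CPM against 0.104, 0.238 and 0.470 CPM, the first from 3 UMIs. The antagonist gene Nog lay at 12.1, 18.4 and 7.15 CPM against 0.189, 0.272 and 0.146 CPM. The ligand gene Bmp2 lay at 1.05, 12.1 and 7.29 CPM against 0.0651, 0.0765 and 0.0324 CPM, with 2 keratin-high UMIs in library 1 and 2 naive-high UMIs in library 4. Some other genes of these lists with too few counts were not higher in each library. In libraries 1, 3 and 4 the ratio was 0.995, 2.25 and 8.11 for the target gene Msx1 and 0.919, 2.30 and 1.23 for the ligand gene Bmp7. For the antagonist genes it was 0, 4.50 and 1.72 (Chrd) and 0, 1.03 and 0 (Grem1).

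Among the 3 E protein genes, the main partners of Id proteins, Tcf12 was higher in formative-high cells (2.54-fold to 3.08-fold) and in keratin-high cells (3.06-fold to 3.27-fold). Tcf3 was nearly level between classes, at 1.02-fold to 1.17-fold in formative-high and 0.905-fold to 0.966-fold in keratin-high cells, and lay at 63.5 to 89.7 CPM in the libraries. Tcf4 stood at 0.836-fold to 1.17-fold and 0.827-fold to 1.47-fold in the same comparisons. Tcf15, a tissue bHLH gene known to be held in check by Id proteins in embryonic stem cells, was lower in keratin-high cells, at 0.502, 0.343 and 0.246 times its naive-high level in libraries 1, 3 and 4. In formative-high cells it stood at 0.577, 0.814, 0.954 and 0.605 times that level and missed the rule in libraries 2 and 3. Other tissue bHLH genes, under 10 CPM in every library, went the other way. Ascl2 (1.85-fold to 2.28-fold) and Twist1 (5.69-fold to 6.96-fold) met the rule as higher in formative-high cells. In keratin-high cells Ascl2 met it as higher (1.79-fold to 2.11-fold), and Twist1, with too few counts for the rule, stood at 5.41-fold to 10.5-fold. Naive-high cells of library 4 gave 163 Ascl2 UMIs, so there the other class brought it to the count limit in both comparisons.

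**Figure D5:**
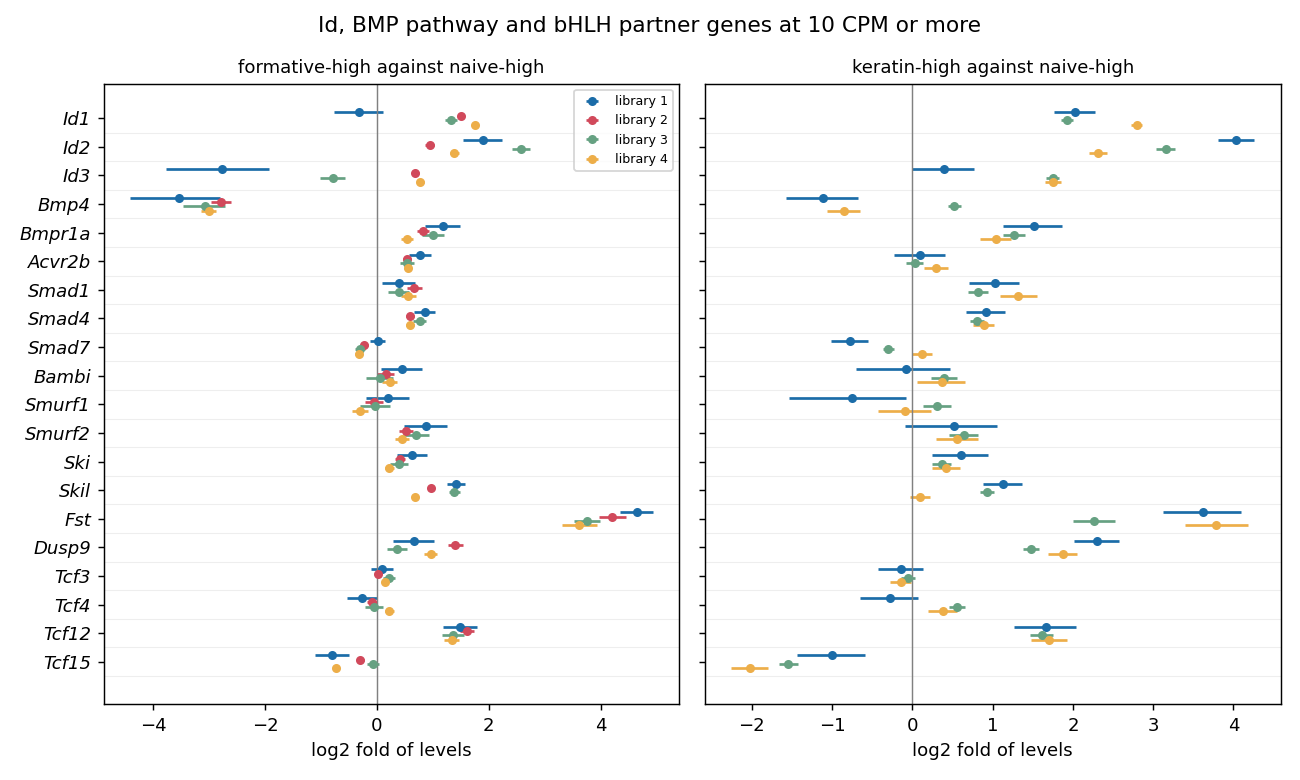
Log2 folds of levels in formative-high (left) and keratin-high (right) against naive-high cells of the same library, for Id1, Id2, Id3 and the 17 pathway genes at 10 CPM or more in a library, with exact 95% counting intervals. Bmp4 lies left of 0 in the formative-high comparison (4.26 to 7.82 CPM there), Fst and Tcf12 lie right of 0 in each library, and Id3 lies on both sides.

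The genes whose levels followed each Id gene most closely were sought over the 17 groups of library and class with 50 or more cells, by Pearson correlation of log2(CPM + 1) among 7459 genes outside the panels. Groups of 1 library share a culture and groups of 1 class share the panel rule, so these values describe likeness and carry no test. For Id1 they were Pnrc1 (0.94), Eif3j2 (0.93), the Notch ligand gene Jag2 (0.93), Sppl3 (0.90) and Tbk1 (0.90). For Id2 they were Mapre1 (0.97), Igsf9 (0.97), the tight junction gene Cldn6 (0.97) and Epb41l5 (0.96). For Id3 they were Rabgap1 (0.90), Stxbp3 (0.90), Ppp1r21 (0.89), Tmsb10 (0.88) and Palm3 (0.88). Cldn6 lay at 4.80 to 40.8 CPM in naive-high, 37.5 to 76.9 in formative-high and 90.3 to 138 in keratin-high cells. Id1 correlated with Id2 at 0.84 and with Id3 at 0.82, Id2 with Id3 at 0.57, and Id4 with the 3 at -0.13, -0.15 and 0.24.

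Over single cells within a library, correlations of log-scaled counts were weaker and, for Id1 to Id3 together, differed between libraries. Over 31989 cells, as means of 4 libraries, Id1 correlated with Id2 at 0.34 (0.07 to 0.57 between libraries), with Id3 at 0.30 (0.05 to 0.53) and with Id4 at 0.03. Id2 correlated with Id3 at 0.17 (-0.03 to 0.37). The closest genes at 10 CPM or more in every library were, for Id1, Id3 and the actin-associated genes Tagln (0.23), Tpm1 (0.21), Cnn2 (0.20) and Dstn (0.20). For Id2 they were Id1, Pou3f1 (0.24), Tagln (0.24), Tpm1 (0.23) and Cald1 (0.23). For Id3 they were Id1, the matrix gene Sparc (0.18), Tpm1 (0.17), Tagln (0.16) and Cnn2 (0.16). Tagln lay at 1390 to 2289 CPM in keratin-high and 1.51 to 13.9 CPM in naive-high cells, and the part of keratin-high cells in these values was not tested. The cells of a library share its depth and culture.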

How the data were processed

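The deposited matrix holds raw counts of UMIs per gene and barcode. The authors aligned 10x 3′ libraries to mm10 with Cell Ranger 6.1.2 and joined the 4 libraries by its aggregation step at default settings, which subsamples reads so that mean depths become alike. The authors' cell filter was applied here: UMIs and detected genes at or above the library mean minus 1 SD and at most 10% mitochondrial UMIs. Doublets were not called, and cells above 2 times their library's median UMI count were left out in an alternative.

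Levels are pooled UMIs per 1000000 with exact 95% Poisson intervals. Folds have exact conditional binomial intervals, and shares Clopper-Pearson intervals. All cover counting error only. A gene entered a class comparison with at least 200 UMIs over both classes in each library used. For shares, co-detection and variance, each cell was drawn down to 5000 UMIs, which left out 0 kept cells. With no library assigned to a group, no edgeR or other test was run. Named genes were the 4 Id genes, pathway genes at 10 CPM or more in a library, and the 5 genes most like each Id gene at that level, of which 1 is not reported here. Some pathway genes below that level are named as well, among them those that met the fold rule. The members, lists, cuts and comparisons were chosen with earlier results of these data known. The fold rule and intervals were tried on simulated Poisson counts, the distribution that the intervals assume. These counts had no spread between cells beyond it, so how the intervals do for genes as variable as Id1 was not tested. Promoter sequences are from RefSeq and gene positions from GENCODE. Python 3.11.15, numpy 2.4.6, scipy 1.17.1 and pandas 2.3.3 were used.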

Additional observations from a re-analysis of the deposited data

How the results depend on the processing

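No paired analysis was possible because no library is tied to a labelled replicate. On the log2 scale, the range between libraries under median-of-ratios size factors was 2.81 for Id1, 2.60 for Id2, 1.45 for Id3 and 0.84 for Id4. Leaving out 1 library at a time gave 439 to 738 genes at least 2-fold between libraries, against 842. It gave 1 to 2 Id genes higher in formative-high cells (2 without library 1), 1047 to 1587 genes lower in keratin-high cells (1587 without library 4, against 1047) and 6 to 10 pairs of Id genes co-detected above the product (6 without library 3). The 1 Id gene higher in formative-high cells became 2 with class cuts 1.5 times higher, 3 with the panels without Zfp42 and Dnmt3b, 2 with cells thinned before classing, and 0 under a 2-fold rule, while the share of all genes higher, 8.66%, became 9.31%, 10.9%, 8.40% and 3.68%. The higher cuts left fewer than 50 formative-high cells in library 1, and the reduced panels in libraries 1 and 3, so fewer libraries had to pass. Under the 2-fold rule 394 genes were higher and 348 lower in formative-high cells, and 832 higher and 573 lower in keratin-high cells. Without thinning 20 of 24 pairs of Id genes by library were above the product, against 10, with no count for pairs of other genes to set beside them. Of the values of single Id genes and pairs, 245 moved within their counting interval under an alternative and 71 beyond it. Id1 in formative-high cells of library 1 changed sign under lower cuts (0.32) and thinning before classing (0.88), from a value whose interval included no difference. Depth limited Id4 most, with 5 and 11 UMIs in formative-high cells of libraries 1 and 3. Growth time and culture batch cannot be told apart from the library.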
